A study of Homo sapiens with 2 samples.

Results

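The BCL2 family controls the mitochondrial step of apoptosis, and 10 of its genes were examined with and without silencing of BMI1 in A375 cells, an established line of human melanoma. The members were every array row whose gene symbol in the platform's annotation was BCL2, BCL2L1, MCL1, BAX, BAK1, BOK, BID, BCL2L11, BBC3 or PMAIP1. They held 14 of the 18188 named rows and were 10 of the 16583 named genes. One group, shBMI-1, was A375 cells that had received lentivirus encoding a hairpin RNA that targets BMI1, a subunit of Polycomb repressive complex 1. The other, empty vector, was A375 cells that had received an empty lentivirus, so both groups carried lentiviral vector. The series' design text once calls the first culture A375-BMI-1, but its title, its source name and the treatment protocol say silencing by shRNA, and the groups follow the title. Each group was 1 culture on 1 single-colour Cy3 array. The number of hairpins is not given in the sources used here, nor whether the cells were clones or pools. No replicate error existed for any value, no test between the groups was possible, and the number of arrays limits the precision.

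As background, family members fall into 3 kinds by what their proteins do. Anti-apoptotic proteins such as BCL2, BCL-XL and MCL-1 hold the effectors in check, and the effectors BAX and BAK open pores in the outer mitochondrial membrane so that cytochrome c escapes and caspases are activated. BH3-only proteins such as BID, BIM, PUMA and NOXA sense stress and either neutralise the anti-apoptotic proteins or activate the effectors. Melanoma cells are known to depend on MCL-1 and BCL-XL for survival, and BCL2 is known as a target of the melanocyte factor MITF.

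The arrays gave 1 linear intensity per row, and a ratio is the log2 intensity of shBMI-1 minus that of empty vector. The brightness limit was each array's median, 129.8 for shBMI-1 and 131.2 for empty vector, and a gene had to reach it on 1 of the arrays or both. The median ratio of the 8921 genes that passed was 0.09, and 60.0% of them had a ratio above 0. The silenced gene itself read 25.8 in shBMI-1 and 68.6 in empty vector, a log2 ratio of -1.41 with a row SD of 0.80, and both values were under the limit. With a pseudocount of 50 its ratio was -0.65, short of 2-fold. Of the 7 melanoma and pigment cell markers named on the array, SOX10 (6889 in shBMI-1 and 7608 in empty vector) and S100B (1452 and 1123 in the same order) passed the limit, while MITF, PMEL, MLANA, TYR and TYRP1 did not. No marker of blood, fibroblast or endothelial cells passed it, and of 4 epithelial markers KRT18 and KRT5 did. As the sole measure of scatter, the row SD gives how far log2 ratios scatter between rows that share a gene, pooled over genes of like intensity. Such rows lie on the same arrays, so the row SD does not hold variation between cultures, labellings or arrays. A ratio larger than its row SD is therefore not shown to exceed that variation. The row SD can also hold real differences, since rows of one gene may detect different transcripts.

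Across the family, no member above the brightness limit was 2-fold higher or lower with shBMI-1. Of the 10 members, 7 passed that limit, and of all genes that passed it 3.23% were 2-fold higher or more and 3.55% were 2-fold lower or more. With dim genes included, 1 of the 10 members was past 2-fold, the BH3-only gene BBC3, which was 2.93-fold lower and under the limit on both arrays. Among all 16583 named genes 5.53% were that much lower, 5.32% that much higher and 10.9% either. Counting all 10 members, 7 had a ratio above 0 and 3 below 0, where 55.2% of all named genes were above 0. Their median ratio was 0.24, against 0.06 for all named genes. The median of the 7 members above the limit was 0.26. That count leaves out 3 of the 4 BH3-only genes, so it mostly describes the anti-apoptotic and effector genes.

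**Figure D1:**
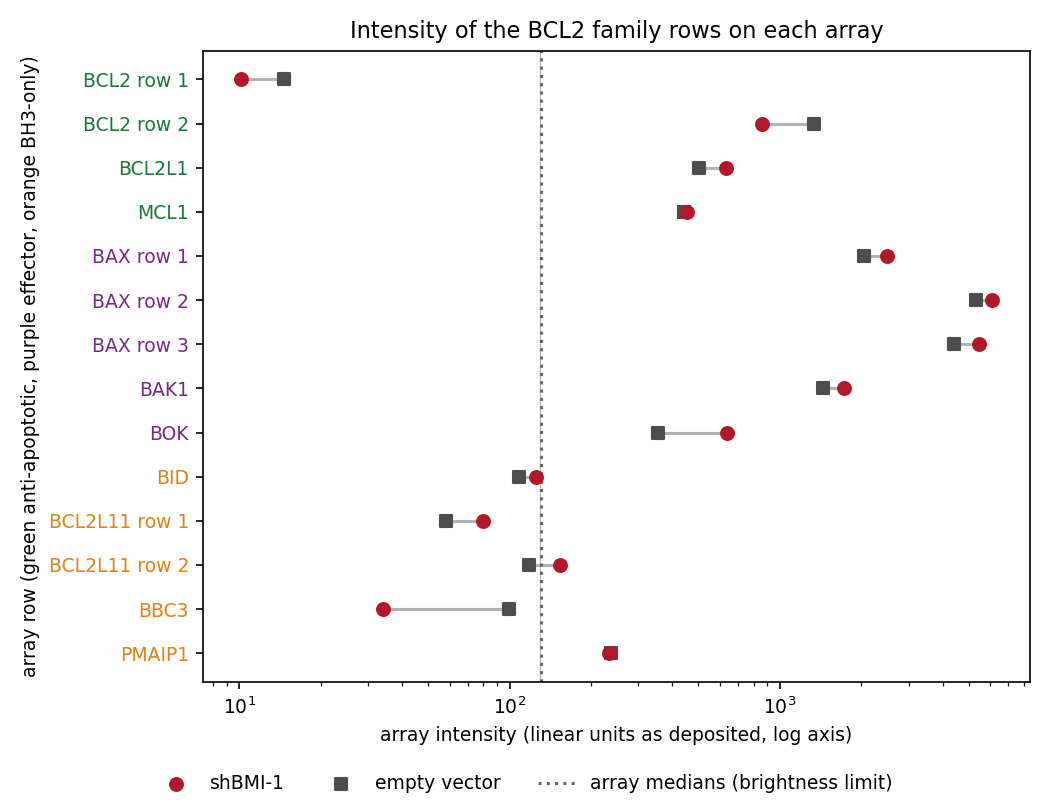
Intensity of each BCL2 family row in shBMI-1 (red circles) and empty vector (grey squares), 1 array each, on a log axis; the dotted line marks the array medians used as the brightness limit. BBC3 (34.1 in shBMI-1 and 99.7 in empty vector) has the widest gap to the left, and BOK (636 and 355 in the same order) the widest to the right.

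The anti-apoptotic genes did not share a direction. BCL2, the founding member, was measured by 2 rows. Rows are named by a transcript, but probe sequences were not used here, so whether a row of BCL2, BCL2L1 or BAX detects that transcript alone is unknown. The row named for NM_000657, the transcript of the shorter beta form, read 860 in shBMI-1 and 1339 in empty vector, a log2 ratio of -0.64 or 1.56-fold lower, with a row SD of 0.25 at that intensity. The row named for NM_000633, the transcript of the membrane-anchored alpha form, read only 10.2 in shBMI-1 and 14.6 in empty vector, a log2 ratio of -0.52 with a row SD of 0.72. Both rows were thus lower with shBMI-1, but the second stood at the 0.757th percentile of the shBMI-1 array and the 4.89th of the empty vector array. With a pseudocount of 50 its ratio was -0.10, and the averaged ratio of BCL2 was -0.36. Of the 1340 named rows with a mean intensity of 1024 to 2048, the range of the bright BCL2 row, 2.01% were at least 1.5-fold lower. Averaged over both rows, BCL2 read 93.5 in shBMI-1 and 139.8 in empty vector, a ratio of -0.58, and it passed the brightness limit through the empty vector array alone. The passing of this average was therefore not independent of its ratio. Taken alone, the bright row was above the limit on both arrays, and the dim row was under it on both. At 1.496-fold lower BCL2 was just short of 1.5-fold, where 8.45% of all genes above the limit were.

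BCL2L1, which encodes BCL-X, read 633 in shBMI-1 and 501 in empty vector, a log2 ratio of 0.34 with a row SD of 0.30. Its single row is named for NM_001191, the transcript of the short form BCL-XS, which is known to promote apoptosis, whereas the long form BCL-XL opposes it. The share of each form in its signal is unknown. MCL1, which encodes a short-lived protein that binds BAK and BIM, read 453 in shBMI-1 and 441 in empty vector. Its ratio of 0.04 was far inside the row SD of 0.42, and it was -0.03 after quantile or loess normalization. The ratio of BCL2 minus that of BCL2L1 was -0.92, and minus that of MCL1 it was -0.62, and centring the arrays leaves both differences as they are. Both differences use the averaged BCL2 ratio, which includes its dim row. With a pseudocount of 50 the ratios were -0.36 for BCL2, 0.31 for BCL2L1 and 0.03 for MCL1.

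All 3 effector genes had a ratio above 0, and they kept it after median centring, quantile and loess normalization. Of all genes above the limit, 60.0% had a ratio above 0 as deposited. That share was 61.8% after median centring, 53.6% after quantile and 52.4% after loess normalization, so a count of 3 genes does not set the effectors apart. BAX, the effector that moves from the cytosol to mitochondria, was bright in 3 rows. The row named for the alpha transcript, NM_138761, read 6107 in shBMI-1 and 5326 in empty vector, a log2 ratio of 0.20. That named for the delta transcript, NM_138763, read 5463 in shBMI-1 and 4409 in empty vector (0.31), and that named for the beta transcript, NM_004324, read 2498 in shBMI-1 and 2057 in empty vector (0.28). The 3 BAX rows were within 0.11 of each other on the log2 scale, and each was 0.99 to 1.55 row SDs from 0. BAK1, the effector that resides in the mitochondrial membrane, read 1734 in shBMI-1 and 1446 in empty vector, a ratio of 0.26 with a row SD of 0.25. The averaged BAX ratio was also 0.26, and both genes lay 0.18 above the median of all genes above the limit, which is less than their row SDs. A row SD describes single rows, however, whereas the BAX ratio averages 3 rows.

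BOK, an effector that does not need the other two to open pores, had the largest positive ratio of the family. It read 636 in shBMI-1 and 355 in empty vector, a log2 ratio of 0.84 or 1.79-fold higher, which is 2.00 row SDs of 0.42. BOK was the only member at least 1.5-fold higher above the limit, where 10.1% of all genes were. Of the 1993 named rows with a mean intensity of 256 to 512, 11.1% were at least 1.5-fold higher. The averaged ratio of BAX exceeded that of BCL2 by 0.84, that of BAK1 also by 0.84, and that of BOK by 1.42. BCL2 had the lowest ratio of the anti-apoptotic genes, so these differences do not hold for that kind as a whole. The ratio of BCL2L1 (0.34) was above those of BAX and BAK1 (0.26 each), and that of MCL1 (0.04) was below them. The averaged BCL2 ratio includes a row at 10.2 in shBMI-1 and 14.6 in empty vector. At the averaged intensity of BCL2 the row SD was 0.76, which describes single rows. Neither BCL2 row lay in that intensity range. With a pseudocount of 50 the ratios were -0.36 for BCL2, 0.26 for BAX, 0.25 for BAK1 and 0.76 for BOK.

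**Figure D2:**
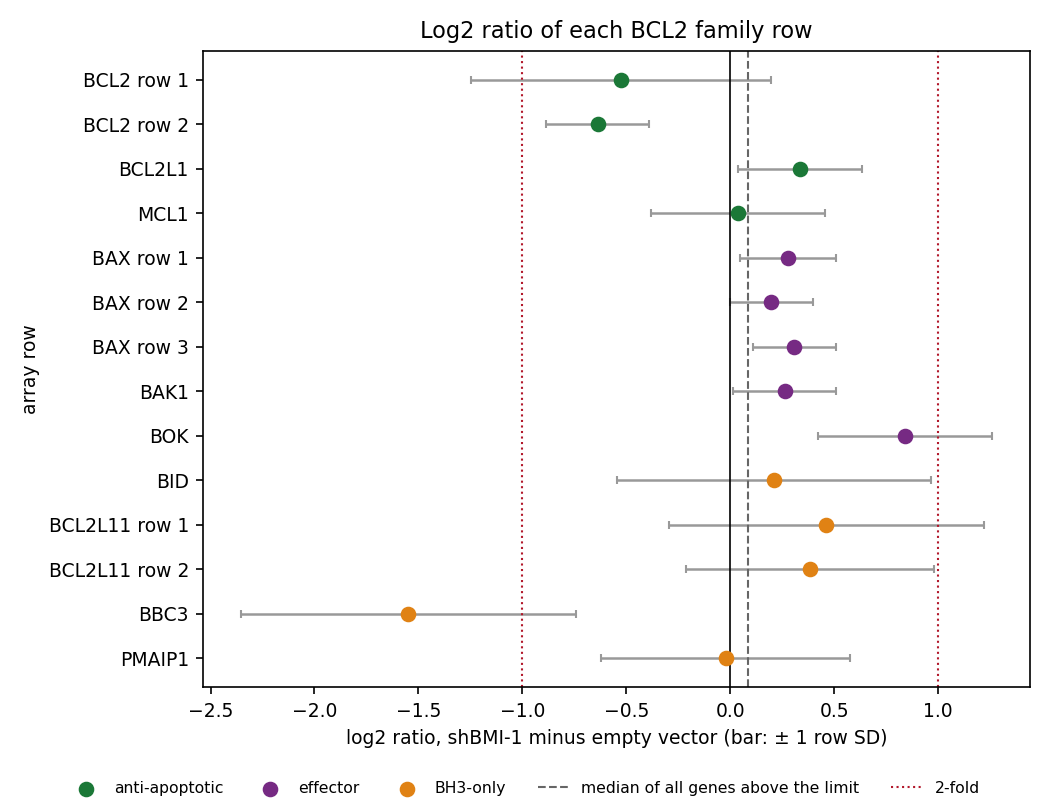
Log2 ratio of each BCL2 family row, shBMI-1 minus empty vector, with bars of 1 row SD at that intensity; dotted lines mark 2-fold and the dashed line the median of all genes above the limit (0.09). The 5 rows of effector genes lie between 0.20 and 0.84, the 2 BCL2 rows at -0.52 and -0.64, and BBC3 at -1.55 with a row SD of 0.80. The bars do not hold variation between cultures or arrays.

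Of the 4 BH3-only genes, 3 did not reach the brightness limit. BBC3 encodes PUMA, a p53-induced protein that binds all anti-apoptotic members. It read 34.1 in shBMI-1 and 99.7 in empty vector, a log2 ratio of -1.55, which is 1.92 row SDs of 0.80. Its shBMI-1 value stood at the 22.8th percentile of that array and its empty vector value at the 44.6th of the other. Among the 2683 named rows with a mean intensity of 32 to 64, 11.3% were at least 2-fold lower. With a pseudocount of 50 added to each intensity its ratio was -0.83, short of 2-fold. Whether BBC3 lay above background is unknown, since the table used holds no background values.

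BCL2L11, which encodes BIM, an activator that MAPK signalling is known to mark for degradation, was above 0 in both of its rows. The row of NM_207002 read 154 in shBMI-1 and 118 in empty vector (log2 ratio 0.38), and that of NM_006538 read 80.1 in shBMI-1 and 58.1 in empty vector (0.46). Each row was inside its own row SD (0.60 and 0.76 in the same order), and the averaged ratio was 0.42. BID, which links death receptors to mitochondria after cleavage by caspase 8, read 126 in shBMI-1 and 108 in empty vector, a ratio of 0.21 with a row SD of 0.76. PMAIP1 encodes NOXA, which binds mainly MCL-1, and it was almost level, at 233 in shBMI-1 and 237 in empty vector (-0.02, row SD 0.60). Within the BH3-only genes the ratio of BBC3 minus that of BCL2L11 was -1.97, and minus that of PMAIP1 it was -1.53. BBC3 and the averaged BCL2L11 were both under the limit, with row SDs of 0.80 and 0.76. The brighter BCL2L11 row reached the limit in shBMI-1 alone (154). With a pseudocount of 50 the ratios were -0.83 for BBC3, 0.27 for BCL2L11 and -0.02 for PMAIP1.

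**Figure D3:**
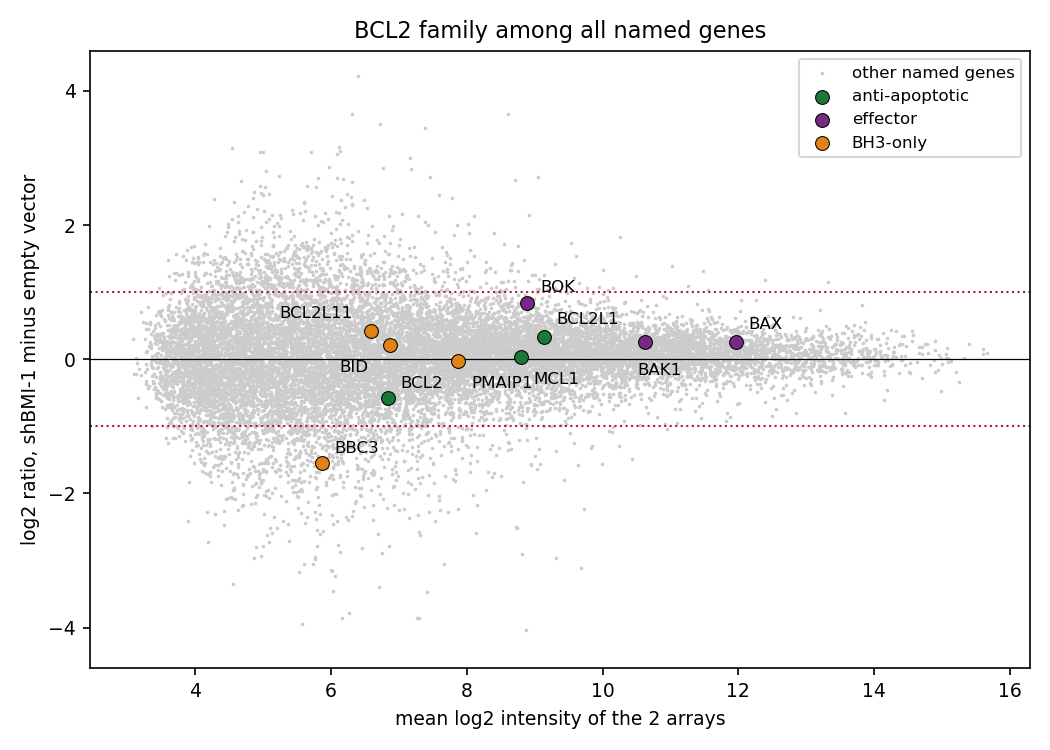
Log2 ratio, shBMI-1 minus empty vector, against mean log2 intensity for all named genes (grey) and the 10 BCL2 family genes (coloured by kind); dotted lines mark 2-fold. The grey cloud widens at low intensity, where BBC3 lies, while BAX and BAK1 sit at 0.26 in its narrow bright part.

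Promoter sequences were set beside these values because Polycomb complexes are known to gather at promoters rich in CpG. RefSeq promoter windows of GRCh38.p14 hold 300 bases each, from 250 before to 50 after an annotated start, and 9 members matched 14 windows; MCL1 is named only. The windows of members held between 5 and 42 CpG, against a median of 14 over 35116 windows. PMAIP1 had the most (42, a number that 5.85% of all windows reach), followed by BCL2L11 (39) and BAX (38). The 250 bases before the start are given for the genes with the lowest, the next lowest and the highest ratio, 5′ to 3′ on the gene's strand, with each CpG in capitals.
BBC3: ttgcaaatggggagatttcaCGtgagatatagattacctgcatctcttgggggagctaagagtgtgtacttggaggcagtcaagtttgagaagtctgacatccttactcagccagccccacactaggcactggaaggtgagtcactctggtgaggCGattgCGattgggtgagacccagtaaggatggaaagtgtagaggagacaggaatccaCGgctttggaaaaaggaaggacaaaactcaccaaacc
BCL2: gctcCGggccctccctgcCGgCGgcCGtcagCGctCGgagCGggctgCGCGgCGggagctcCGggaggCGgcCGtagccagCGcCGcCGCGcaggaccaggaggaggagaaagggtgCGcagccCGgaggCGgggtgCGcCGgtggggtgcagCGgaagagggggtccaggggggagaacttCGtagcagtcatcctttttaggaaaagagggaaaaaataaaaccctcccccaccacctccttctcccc
BOK: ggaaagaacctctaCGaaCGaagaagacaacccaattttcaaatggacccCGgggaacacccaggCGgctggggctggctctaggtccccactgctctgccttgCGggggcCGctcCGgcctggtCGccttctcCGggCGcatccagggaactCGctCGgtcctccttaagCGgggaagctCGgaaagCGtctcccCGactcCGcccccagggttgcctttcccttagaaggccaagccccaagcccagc
The BBC3 stretch (chr19:47232668-47232917, minus strand) holds 4 CpG, the BCL2 stretch (chr18:63319770-63320019, minus strand) 24, and the BOK stretch (chr2:241558495-241558744, plus strand) 17. The genes with ratios below and above 0 thus both include CpG-rich windows, and no binding was measured here. BBC3 has further transcripts, and which start A375 cells use is not known from these arrays.

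Motifs of factors known to act on the family were sought on both strands of the same 300-base windows, each as a description of letters and not as a binding site. Members are counted as genes, out of 9, with the motif in any window, whereas the shares are per window. BID had 5 windows and BCL2L1 had 2, so counts and shares are in unlike units and cannot be compared directly. The forkhead motif GTAAACA was in the window of 1 member, BCL2L11, a known FOXO target, and in 3.42% of all windows. The E-box CACGTG was in windows of BAX (4 copies), BID and BBC3, and in 7.26% of all windows. The GC box GGGCGG was in windows of 7 members and in 45.0% of all windows, and the p53 half-site was in that of BAK1 and in 6.63% of all windows. The TATA box TATAAA was in 1 of the windows of BCL2L1 and in 11.5% of all windows. None of these 4 spelled motifs contains another.

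The genes around the BCL2 family were read from 6 lists of apoptosis genes. The lists named 81 genes, of which 72 were on the annotated array and 47 passed the brightness limit. Past 2-fold were 2 of the 47 above 0 and 1 below 0, together 3 genes, where 6.78% of all genes that passed were past 2-fold in either direction. All 3 passed the limit through 1 array alone, the one where each was higher. Their passing was thus not independent of their ratios, and none of them reached the limit on both arrays. A ratio above 0 was found for 36 of the 47, where 60.0% of all genes above the limit were above 0. After loess normalization it was 32 of 47, where 52.4% of all genes were. Their median was 0.17, or 0.11 after loess normalization, against 0.09 for all genes as deposited and 0.02 after loess normalization. With no limit the median of the 72 was 0.12, against 0.06 for all named genes.

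Among 13 other relatives of BCL2, 6 passed the limit, none was past 2-fold, and their median was 0.31. The median of all 13 was 0.02. BCL2L2, which encodes the anti-apoptotic BCL-W, read 650 in shBMI-1 and 460 in empty vector (0.50, row SD 0.30). BMF, a BH3-only gene whose protein responds to loss of attachment, read 214 in shBMI-1 and 309 in empty vector (-0.53, row SD 0.42). Of the apoptosome and caspase genes, 9 passed, with 8 above 0 (5 after quantile or loess normalization) and none past 2-fold. Their median was 0.17, and that of the list with no limit was 0.06. CASP8, the caspase that cleaves BID, read 312 in shBMI-1 and 179 in empty vector (0.81, row SD 0.60). ENDOG, a mitochondrial nuclease, read 1493 in shBMI-1 and 1135 in empty vector (0.39, row SD 0.25).

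Further from the mitochondria, 5 genes of the list of inhibitor of apoptosis proteins passed, with 3 above 0. Their median was 0.12, and that of the list with no limit was also 0.12. The 1 gene past 2-fold in that list was XAF1, which is not itself an inhibitor but an antagonist of XIAP. It was at 295 in shBMI-1 and 124 in empty vector (1.25, row SD 0.60), and at 0.98 with a pseudocount of 50. In the death receptor list 7 passed, with 6 above 0 and a median of 0.12 (0.09 with no limit). CFLAR, which encodes the caspase 8 inhibitor c-FLIP, was 2.15-fold lower, at 68.9 in shBMI-1 and 148 in empty vector (-1.11, row SD 0.76), and at -0.74 with a pseudocount of 50. It passed the limit through the empty vector array alone, and XAF1 through the shBMI-1 array alone.

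Among partners and turnover factors of BCL2 proteins, 10 passed, 6 of them above 0 and none past 2-fold. Their median was 0.16, and that of the list with no limit was 0.21. DYNLL2, the dynein light chain that tethers BMF, read 319 in shBMI-1 and 189 in empty vector (0.75, row SD 0.60). HUWE1, a ubiquitin ligase of MCL-1, read 1779 in shBMI-1 and 1219 in empty vector (0.55, row SD 0.25). Of the transcription factors that act on the family's genes, 10 passed, with 9 above 0 (8 after quantile or loess normalization). Their median was 0.19, and that of the list with no limit was 0.21. DDIT3, which encodes the stress factor CHOP, known to induce BIM and to repress BCL2, was 2.93-fold higher, at 163 in shBMI-1 and 55.7 in empty vector (1.55, row SD 0.76). It passed the limit through the shBMI-1 array alone, and its ratio was 1.01 with a pseudocount of 50. The p53-family gene TP73 was at 470 in shBMI-1 and 465 in empty vector, and FOXO3 was at 339 in shBMI-1 and 301 in empty vector.

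**Figure D4:**
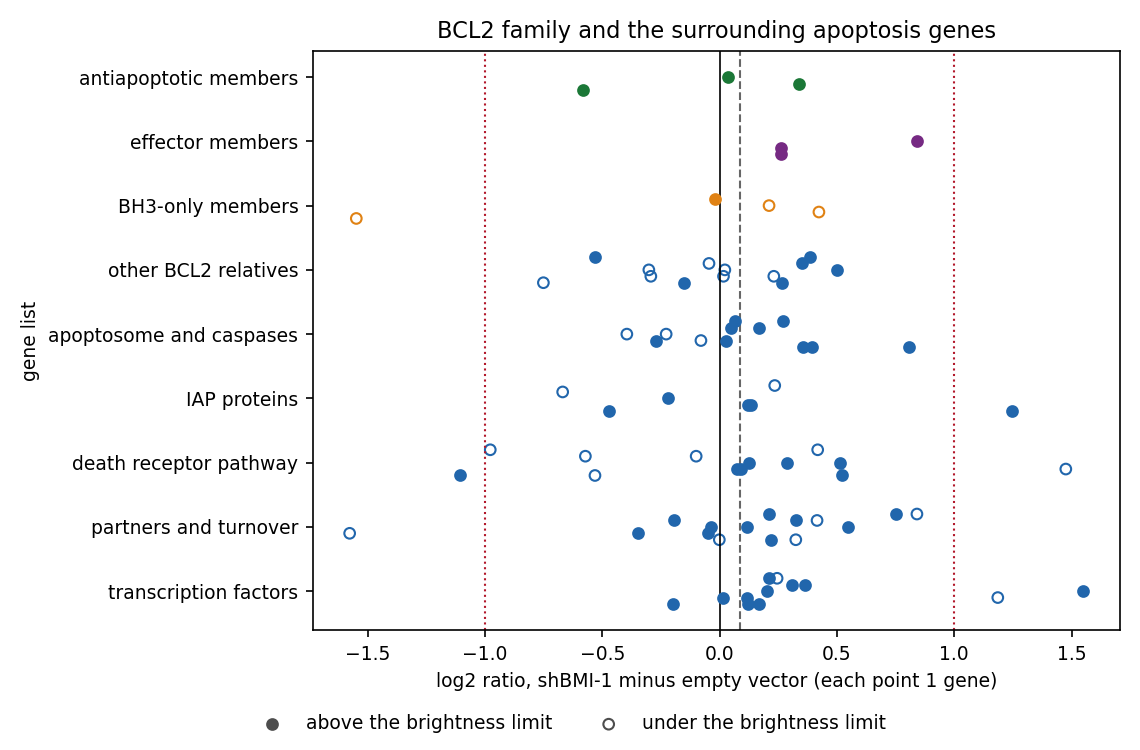
Log2 ratio, shBMI-1 minus empty vector, of each BCL2 family gene by kind and of each gene of the 6 apoptosis lists; filled points passed the brightness limit and open points did not. Of the 47 filled points in the 6 lists, 3 lie past the dotted 2-fold lines, XAF1 (1.25), CFLAR (-1.11) and DDIT3 (1.55). Each of these 3 passed the limit only on the array where it was higher.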

How the data were processed

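Total RNA of 2 A375 cultures was made into oligo-dT primed cDNA and, after Cy3 labelling, read on NimbleGen arrays, per the labels' protocols. The deposited table lists 45033 rows with a linear intensity for each array; how the authors scanned, summarised and normalized them is not given in the sources used here. Groups came from the sample titles. Symbols came from the platform annotation, which names 18188 rows. The log2 of each intensity was taken with no pseudocount, rows of one symbol were averaged on that scale, and ratios are shBMI-1 minus empty vector. The threshold was 2-fold and the brightness limit each array's median. With 1 array per group no p-value was computed. The members, lists, row SD and alternatives were chosen with earlier results of these data known. All members are named, and from each list every gene past 2-fold above the limit or, with none, the 2 with the largest absolute ratios; TP73 and FOXO3 were named after their values were seen. The calls were tested on simulated data. That checks whether the code returns known ratios, and it does not measure error between cultures or arrays. Alternatives were median centring, quantile and loess normalization (span 0.3, 3 iterations), the brightest row, a pseudocount of 50, other limits, and 1.5-fold and 3-fold thresholds. Python 3.11.15, numpy 2.4.6, pandas 2.3.3, statsmodels 0.14.6 and matplotlib 3.10.9 were used.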

Additional observations from a re-analysis of the deposited data

How the results depend on the processing

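The family's counts of 0 genes 2-fold higher and 0 lower held under median centring, quantile and loess normalization, the pseudocount, the brightest row and the 75th percentile limit. With no brightness limit 1 member was lower (BBC3), and at 1.5-fold 1 was higher (BOK). The family median stayed between 0.18 and 0.30 over 9 alternatives, 2 of them chosen after seeing the data. MCL1 was the only member whose sign depended on a setting (-0.03 to 0.05). Over all genes, 288 were higher and 317 lower. These were 142 and 190 with a pseudocount of 50, 883 and 917 with no limit, 47 and 51 at the 75th percentile limit, 901 and 754 at 1.5-fold, and 80 and 132 at 3-fold, higher count first. Of the list genes 3 were past 2-fold, against 1 with the pseudocount, 6 with no limit, 0 at the 75th percentile limit, 5 at 1.5-fold and 0 at 3-fold. Fewer or more genes are tested under other limits. By definition a lower threshold counts more genes and a higher one fewer, and a pseudocount moves the ratio of every row toward 0. No paired analysis was possible because each group has 1 array, and none could be left out. Signal over background is unknown, which limits every row under the brightness limit.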

Other observations

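Of the 25 list genes under the brightness limit, 3 lay past 2-fold, where 15.6% of all 7662 genes under it did. That is no larger a share than among all dim genes, and the 3 were named after their values were seen. TNFSF10, the death ligand TRAIL, read 40.5 in shBMI-1 and 14.6 in empty vector (log2 ratio 1.48, row SD 0.72). USP9X, a deubiquitinase known to stabilise MCL-1, read 10.1 in shBMI-1 and 30.1 in empty vector (-1.58, row SD 0.72). MITF, which is known to induce BCL2 in pigment cells, read 72.8 in shBMI-1 and 32.0 in empty vector (1.19, row SD 0.80). All 3 genes were under the limit on both arrays.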
